A study of Mus musculus with 18 samples.

Results

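Plasmacytoid dendritic cells (pDCs) kept in vehicle for 6 h were set against pDCs sampled at 0 h in vehicle: 3 libraries against 3, of 18 libraries in the series, all chosen by their labels. All these groups hold the same kind of cell: C57BL/6 mice, wild-type in genotype, gave the marrow, and 7 days with Flt3 ligand (Flt3L) at 80 ng/mL, the growth factor that drives dendritic cell development, gave the pDCs. They were then enriched on beads against B220, to a stated routine purity of 80%, and seeded in 96-well plates. Vehicle is Limulus amebocyte lysate (LAL); its amount was not given in the labels. Age and sex of the mice are not in the labels. Nor do the labels tell if 3 libraries mean 3 animals or cultures, so the p-values reflect library-to-library spread that could be technical. Vehicle 16 h and untreated 0 h (3 libraries each, the same cells) are used below to follow the genes; the series also holds imiquimod 6 h and 16 h groups, which are not described here. There is no untreated 6 h group, so time in the plate and vehicle cannot be told apart over these 6 h.

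pDCs are the dendritic cells specialised in making type I interferon when the endosomal receptors TLR7 and TLR9 meet nucleic acid, a task set up by the transcription factors TCF4, IRF8 and IRF7. Like other dendritic cells they can mature, which means taking up genes of migration, antigen presentation and costimulation. Immediate-early genes are the transcription factors and feedback regulators switched on within minutes of receptor signalling and switched off again soon after. Flt3L-grown cultures also hold dividing precursors, so genes of DNA replication and mitosis are measurable in them.

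The vehicle 6 h libraries held 11673965 to 12402967 counts and the vehicle 0 h libraries 11423956 to 11926957, within a series range of 10609741 to 13447018. All values below are CPM (counts scaled to a common library size by TMM), and a fold change is log2 of vehicle 6 h over vehicle 0 h, given with its standard error (SE). A gene was called changed at an adjusted p under 0.05 in edgeR's quasi-likelihood test, with Benjamini-Hochberg adjustment over 14876 genes. Ribosomal RNA and its fragments took 15.5 to 16.6% of counts at vehicle 6 h and 10.8 to 11.4% at vehicle 0 h. Among vehicle 6 h libraries, replicate 2 had the lowest share of mitochondrial mRNA, 0.292%, where the 3 vehicle 0 h libraries had 0.466 to 0.511%. The part of these differences in the results was not tested.

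The pDC label was borne out by its markers, and the marker sums of other dendritic and myeloid cells were lower at vehicle 6 h. The 9 pDC markers summed to 7207 to 7366 CPM at vehicle 6 h and 7376 to 7475 CPM at vehicle 0 h. The 5 markers of type 2 conventional dendritic cells (cDC2) summed to 405 to 418 CPM at vehicle 6 h, against 591 to 615 CPM at vehicle 0 h. Irf4 had the largest part in that difference, averaging 124 CPM at vehicle 6 h and 268 CPM at vehicle 0 h. Sirpa averaged 243 CPM at vehicle 6 h and 242 CPM at vehicle 0 h, and Itgam, Cd209a and Clec10a were lower. The 5 monocyte and macrophage markers summed to 290 to 341 CPM at vehicle 6 h, against 414 to 437 CPM at vehicle 0 h. Lyz2 had the largest part in that difference, averaging 171 CPM at vehicle 6 h and 262 CPM at vehicle 0 h. Csf1r averaged 120 CPM at vehicle 6 h and 129 CPM at vehicle 0 h. For the 4 cDC1 markers the sums were 155 to 163 CPM at vehicle 6 h and 204 to 211 CPM at vehicle 0 h. Xcr1, Clec9a and Itgae were lower, while Batf3 was higher (log2 change 0.88). The 6 B cell markers summed to 81.4 to 90.6 CPM at vehicle 6 h and 95.1 to 99.5 CPM at vehicle 0 h. These sums did not overlap between the groups. Those of the longer list of 20 cDC1 genes did, at 4474 to 4602 CPM at vehicle 6 h and 4546 to 4669 CPM at vehicle 0 h. The defining neutrophil gene Ly6g and the erythroid genes Hbb-bs and Klf1 had no count in any of the 6 libraries. In these bulk libraries, fewer cells of a type and less RNA per cell cannot be told apart.

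After 6 h, 3868 genes (26% of those tested) were higher and 4003 (26.9%) were lower, together 52.9%. All counts given below for gene lists at vehicle 6 h are to be read beside these shares. Most of these changes were small: 4660 of the called genes moved by less than 0.5 on the log2 scale, and the median absolute change over all tested genes was 0.272. Changes of at least 2-fold numbered 1106 (7.43% of tested genes): 506 higher (3.4%) and 600 lower (4.03%). In 8310 genes (55.9%) the libraries of the groups did not overlap. Vehicle alone, compared at 0 h with untreated cells at 0 h, gave 0 calls (0%) in edgeR and 0 in DESeq2, with 708 genes (4.76%) at an unadjusted p under 0.05. Both of these groups are labelled 0 h, so this contrast cannot show what vehicle did over 6 h.

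**Figure D1:**
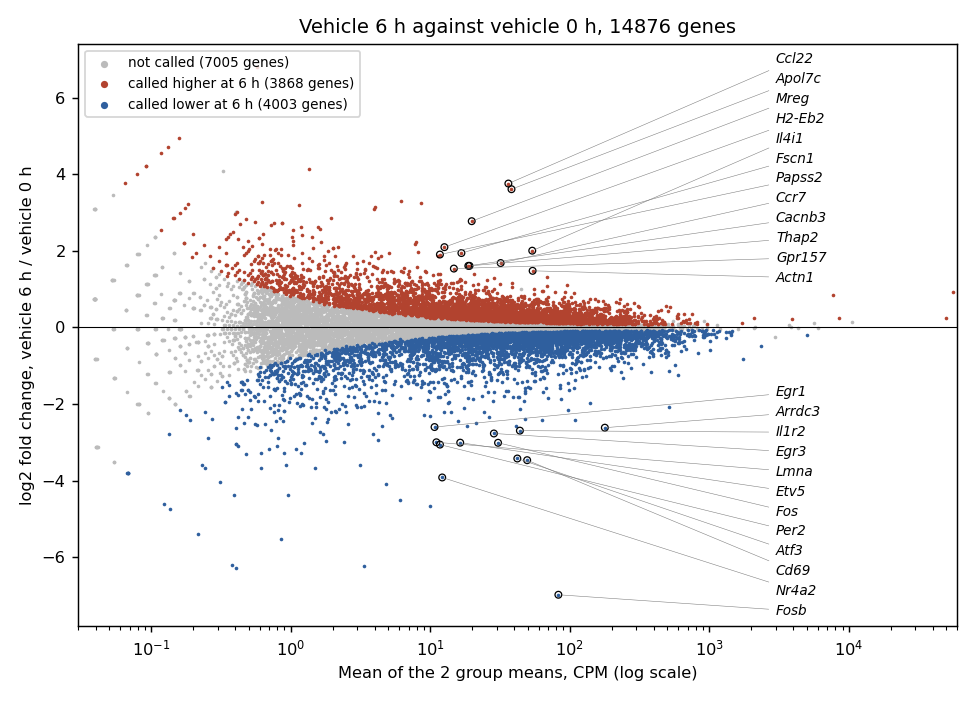
Each point is 1 of 14876 tested genes: the x axis is the mean of the group means in CPM (log scale) and the y axis is log2 of vehicle 6 h over vehicle 0 h. Red and blue points were called higher (3868) and lower (4003), grey points were not called, the circled genes are the 12 highest and 12 lowest by the rule for named genes, and the 88 genes below 0.03 CPM, none of them called, are outside the axis.

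Much of the change was still present later. Vehicle 16 h against untreated 0 h, a comparison that shares no library with the first, called 4211 genes higher (28.3%) and 4511 lower (30.3%). Of the 506 genes at least 2-fold higher at vehicle 6 h, 405 (80.0%) were also higher there and 1 was lower. Of the 600 genes at least 2-fold lower, 476 (79.3%) were also lower and 7 were higher. Over all called genes, 2791 of 3868 higher and 3059 of 4003 lower at vehicle 6 h were called in the same direction there. The counts given below for gene lists at vehicle 16 h are to be read beside these.

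Most immediate-early genes were lower after 6 h than in freshly sampled cells. Of 38 tested genes of this list, 30 were lower, 6 were higher and 2 were not called, and 19 were at least 2-fold lower; the median log2 change was -1.0, against 0.00496 for all tested genes. Together they summed to 1650 to 1738 CPM at vehicle 6 h and 3061 to 3188 CPM at vehicle 0 h. Fosb (ENSMUSG00000003545.3, mm10 chr7:19302696-19310051), a subunit of the AP-1 transcription factor, had 1.63, 1.47 and 0.739 CPM at vehicle 6 h, against 164, 159.6 and 169 CPM at vehicle 0 h. Every vehicle 6 h library was far below every vehicle 0 h library, and the log2 change was -6.98 (SE 0.10, adjusted p = 1.33e-55, edgeR). This SE is understated, because the vehicle 6 h libraries held only 21, 19 and 9 counts of Fosb. Untreated cells at 0 h were as high, at 164 ± 11.5 CPM (SD, n = 3), and vehicle 16 h cells were as low as at 6 h, at 0.889 ± 0.255 CPM (SD, n = 3).

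The nuclear receptors of the NR4A family, orphan receptors induced by antigen receptor and calcium signals, were lower by unlike amounts. Nr4a2 (chr2:57106830-57124003) had 1.32, 1.62 and 1.56 CPM at vehicle 6 h, against 23.2, 21.1 and 24.1 CPM at vehicle 0 h. Nr4a1 (chr15:101254269-101274795) had 11.4, 12 and 12.1 CPM at vehicle 6 h, against 76.0, 64.8 and 71.5 CPM at vehicle 0 h. The groups were separate in both genes, with log2 changes of -3.92 (SE 0.15) for Nr4a2 and -2.58 (SE 0.076) for Nr4a1. The third member, Nr4a3, had 47.4, 43.1 and 46.4 CPM at vehicle 6 h, against 72.1, 67.6 and 72.1 CPM at vehicle 0 h, a smaller log2 change of -0.63 (SE 0.05). Cd69 (chr6:129267325-129275436), an early activation antigen that holds lymphocytes in tissue, had 7.39, 8.17 and 9.03 CPM at vehicle 6 h, against 87.6, 90.9 and 93.4 CPM at vehicle 0 h. Its log2 change was -3.47 (SE 0.07, adjusted p = 1.33e-55, edgeR).

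AP-1 and zinc finger members of the list other than Fosb were lower by a range of amounts. The log2 change was -3.42 for Atf3, -3.01 for Fos, -2.77 for Egr3, -2.60 for Egr1, -1.88 for Fosl2, -1.59 for Jun and -1.08 for Klf4. Junb, another AP-1 subunit, went the other way, with 65.8, 64.5 and 63.6 CPM at vehicle 6 h against 52.7, 47.8 and 53.6 CPM at vehicle 0 h (log2 change 0.33, SE 0.052). The same was true of the stress sensor Gadd45b, with 34.1, 33.8 and 34.1 CPM at vehicle 6 h against 20.7, 19.6 and 17.6 CPM at vehicle 0 h, and of the antiproliferative gene Btg2 (log2 change 0.62). The immediate-early list therefore did not move as a block. Of the 30 lower members, 28 were also lower in vehicle 16 h against untreated 0 h.

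**Figure D2:**
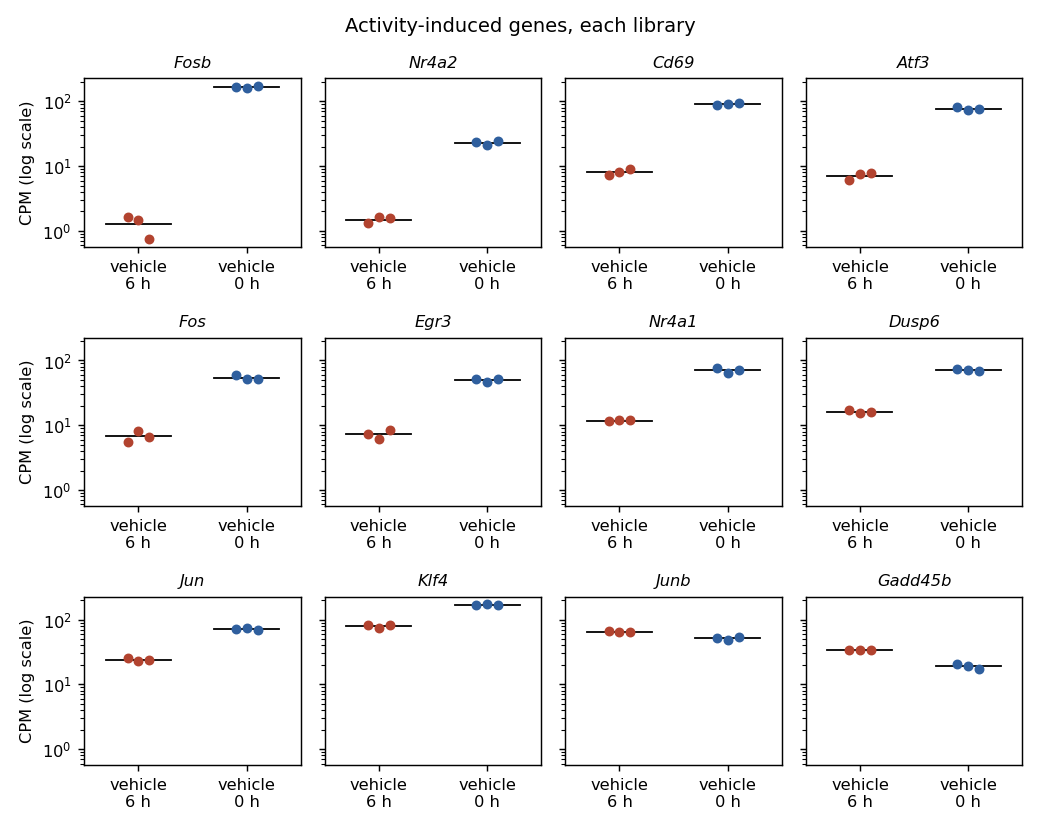
Values of 12 immediate-early genes in CPM (log scale) in each library, with vehicle 6 h left of vehicle 0 h; points are libraries and bars are group means. Fosb has the widest gap, at most 1.63 CPM in vehicle 6 h libraries against at least 159.6 CPM in vehicle 0 h libraries, while Junb and Gadd45b are higher at vehicle 6 h.

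Many immediate-early promoters carry the element bound by CREB, the transcription factor that cyclic AMP and calcium signals activate. Its core, TGACG on either strand, was sought in the 250 bases before the start. A gene with several starts counted if any of them had it. The core was found in 19 of 30 genes of the list with a promoter in the RefSeq table (63.3%). That compares with 19.8% of all 27025 genes in the table and 30.5% of 9841 tested genes. The full element TGACGTCA, which contains the core, was in 4 of 30 (13.3%), against 1.77% of all genes in the table. The AP-1 element TGANTCA was in 1 of 30 (3.33%), against 7.82%. The TGACG element was nearly as common in the promoters of the MHC class I list (60%) and of the heat shock list (56.5%), whose genes moved little. Among all genes at least 2-fold lower it was in 101 of 333 with a promoter in the table (30.3%), close to the share among tested genes. The windows of 3 immediate-early genes named above and of Per1, a clock gene described below, are shown as examples. Cd69, Atf3 and Fos had lower fold changes than Nr4a1 and Per1 and are not shown. All the windows shown hold TGACG, against 19 of 30 genes of the list. They are from RefSeq (GRCm38.p6, the mm10 build), 5′ to 3′ on the gene's strand, at chr7:19310046-19310295 (minus strand) for Fosb, chr2:57124004-57124253 (minus) for Nr4a2, chr15:101266596-101266845 (plus) for Nr4a1 and chr11:69098699-69098948 (plus) for Per1, and capitals mark TGACG, read on either strand, and the E-box CACGTG.
Fosb: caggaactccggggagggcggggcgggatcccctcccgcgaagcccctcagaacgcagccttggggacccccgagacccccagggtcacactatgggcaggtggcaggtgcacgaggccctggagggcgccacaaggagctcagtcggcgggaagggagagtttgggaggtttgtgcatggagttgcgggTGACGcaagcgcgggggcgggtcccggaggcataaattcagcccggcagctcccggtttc
Nr4a2: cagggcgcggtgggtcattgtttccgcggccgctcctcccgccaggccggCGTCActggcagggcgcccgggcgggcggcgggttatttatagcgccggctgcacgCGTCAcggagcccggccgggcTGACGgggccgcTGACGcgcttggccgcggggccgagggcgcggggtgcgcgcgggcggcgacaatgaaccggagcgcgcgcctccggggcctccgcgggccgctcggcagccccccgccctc
Nr4a1: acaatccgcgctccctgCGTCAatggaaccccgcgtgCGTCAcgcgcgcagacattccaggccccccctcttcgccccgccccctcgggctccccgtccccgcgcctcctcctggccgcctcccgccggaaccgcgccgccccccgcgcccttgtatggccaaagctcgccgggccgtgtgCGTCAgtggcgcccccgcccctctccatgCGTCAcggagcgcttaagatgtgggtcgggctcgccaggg
Per1: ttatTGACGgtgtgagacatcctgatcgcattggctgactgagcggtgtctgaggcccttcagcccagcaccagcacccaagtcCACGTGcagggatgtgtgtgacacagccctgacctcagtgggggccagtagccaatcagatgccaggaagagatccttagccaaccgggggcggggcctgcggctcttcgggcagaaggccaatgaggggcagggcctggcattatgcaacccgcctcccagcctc
Nr4a2 and Nr4a1 held 4 TGACG elements each, Fosb held 1, and the Per1 window shown held 1 with 1 E-box. A second Per1 start in the table, whose window (chr11:69099902-69100151) is not shown, held 1 TGACG element and no E-box.

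In the list of 34 tested genes of growth factor and cytokine receptors and Flt3 signalling, 21 were lower, 6 higher and 7 not called. The median log2 change was -0.20. All 21 were also lower in vehicle 16 h against untreated 0 h, as were 3059 of all 4003 lower genes. The members with the lowest fold changes, named here after their values were seen, are known to act downstream of the ERK kinase or to restrain it. Etv5, an ETS transcription factor downstream of ERK, had 2.88, 3.24 and 4.76 CPM at vehicle 6 h, against 29.4, 27.5 and 30.4 CPM at vehicle 0 h. The log2 change of Etv5 was -3.01 (SE 0.12, adjusted p = 4.57e-34, edgeR), and no library of one group reached the other. The ERK phosphatase gene Dusp6 had 17.4, 15.7 and 15.8 CPM at vehicle 6 h, against 74.3, 70.2 and 68.1 CPM at vehicle 0 h. The pathway inhibitors Spry1, Spred2 and Spry2 had log2 changes of -2.97, -2.46 and -1.49. Flt3 itself, the receptor for Flt3L, moved little: 568, 552 and 560.4 CPM at vehicle 6 h, against 520.2, 540.2 and 519 CPM at vehicle 0 h (log2 change 0.09). Socs2, a STAT5-induced suppressor of cytokine signalling, was higher, with 11.1, 10.6 and 11.7 CPM at vehicle 6 h against 1.11, 0.74 and 1.48 CPM at vehicle 0 h (log2 change 3.31, SE 0.18).

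Of 20 tested clock genes, 10 were lower, 2 (Dbp and Csnk1d) were higher and 8 were not called. Among all tested genes, 26.9% were lower and 26% higher. Per1 (chr11:69095217-69109960), a repressor of the circadian loop that is also induced directly by cyclic AMP and glucocorticoid, had 35.4, 35.2 and 35.6 CPM at vehicle 6 h, against 160.5, 153 and 158 CPM at vehicle 0 h. The log2 change of Per1 was -2.15 (SE 0.05, adjusted p = 1.91e-51, edgeR). Per2 (chr1:91415982-91459324) had 2.49, 2.54 and 2.46 CPM at vehicle 6 h, against 20.1, 19.7 and 23 CPM at vehicle 0 h, a log2 change of -3.06 (SE 0.13). Both period genes were still at the lower level in vehicle 16 h cells, at 37.8 ± 2.76 CPM for Per1 and 2.94 ± 0.401 CPM for Per2 (SD, n = 3 each). Nr1d2, Nfil3 and Bhlhe40, other repressors of the loop, had log2 changes of -1.34, -1.38 and -1.12, while the repressors Per3 and Nr1d1 were not called. Of the activators, Clock had a log2 change of -0.40. Arntl was not called, at 12.4, 13.4 and 12.8 CPM at vehicle 6 h and 11.4, 14.7 and 12 CPM at vehicle 0 h (log2 change 0.02). The E-box, the element that clock activators bind, was in 5 of 16 genes of the list with a promoter in the RefSeq table (31.3%). The share was 6.86% of all genes in that table. The E-box share among tested genes is not given here. For TGACG, the share among tested genes was above that of all genes in the table.

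Target genes of glucocorticoid and of the FoxO factors were also mostly lower. By comparison, 26.9% of all tested genes were lower and 26% higher. Of 18 tested glucocorticoid-responsive genes, 11 were lower and 3 higher, and all 11 were also lower in vehicle 16 h against untreated 0 h. Il1r2, the decoy receptor for interleukin 1, had 10.2, 12.3 and 12.6 CPM at vehicle 6 h, against 74.6, 76.5 and 76.7 CPM at vehicle 0 h (log2 change -2.70, SE 0.071). Klf9 had a log2 change of -1.94 and Tsc22d3 of -0.70, and Sgk1 and Ddit4 were higher by 0.65 and 1.40. Of 23 tested FoxO targets, 15 were lower and 4 higher, with a median of -0.53. Txnip, an inhibitor of thioredoxin and glucose uptake, had 302, 331 and 330.2 CPM at vehicle 6 h, against 715, 705 and 685 CPM at vehicle 0 h. The log2 change was -1.83 for Irs2, an adaptor of the insulin receptor, and 0.53 for Foxo3. Arrdc3 (chr13:80883384-80896042), an arrestin family member, had the lowest fold change among the genes averaging at least 100 CPM: 49.0, 49.4 and 51.3 CPM at vehicle 6 h, against 309, 313 and 297 CPM at vehicle 0 h (log2 change -2.62, SE 0.043).

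In the same hours, most genes of dendritic cell maturation were higher. By comparison, 26% of all tested genes were higher and 26.9% lower. Of 36 tested maturation genes, 21 were higher, 8 lower and 7 not called; 11 were at least 2-fold higher, and the median log2 change was 0.44. Ccl22 (chr8:94745590-94751699), the chemokine that draws T cells bearing CCR4, had 68.5, 64.0 and 70.1 CPM at vehicle 6 h, against 6.76, 4.60 and 3.54 CPM at vehicle 0 h. Its log2 change was 3.76 (SE 0.0995, adjusted p = 1.91e-27, edgeR). Ccr7 (chr11:99144196-99155077), the receptor that guides dendritic cells to lymph nodes, had 48.3, 49.3 and 48.4 CPM at vehicle 6 h, against 16.0, 14.6 and 15 CPM at vehicle 0 h. The libraries of the groups were separate in both genes, and the log2 change of Ccr7 was 1.68 (SE 0.066).

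Other genes with the highest fold changes included 2 more of the list, Fscn1 and Il4i1, and Apol7c, which is outside it. Fscn1 (chr5:142960343-142973185), the actin bundler of mature dendritic cells, had 25.7, 25.7 and 28.1 CPM at vehicle 6 h, against 6.12, 6.91 and 7.66 CPM at vehicle 0 h. Il4i1 (chr7:44816387-44840809), a secreted amino acid oxidase, had 87.9, 85.3 and 85.0 CPM at vehicle 6 h, against 23.1, 19.6 and 21.7 CPM at vehicle 0 h. Apol7c (chr15:77524852-77533316), an apolipoprotein L family member, had 68.4, 72.0 and 71.2 CPM at vehicle 6 h, against 5.56, 5.34 and 6.43 CPM at vehicle 0 h. The log2 changes were 1.94 for Fscn1, 2.00 for Il4i1 and 3.61 for Apol7c, with no overlap between the groups. Socs2, also on the maturation list, had a log2 change of 3.31, as given above, and Nudt17 of 1.88 from few counts. Cacnb3, a calcium channel subunit on that list, had a log2 change of 1.61, and Mreg, Papss2 and Actn1, outside it, of 2.77, 1.90 and 1.48.

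Costimulatory genes split. Cd40, the receptor for T cell help, had 14.2, 14.8 and 16.3 CPM at vehicle 6 h, against 5.72, 6.74 and 5.11 CPM at vehicle 0 h (log2 change 1.37, SE 0.10). Cd86 (chr16:36603869-36666081), a ligand of CD28, had 25, 27.5 and 25.4 CPM at vehicle 6 h, against 75.8, 75.7 and 80.1 CPM at vehicle 0 h. That is a log2 change of -1.57 (SE 0.056, adjusted p = 4.46e-39, edgeR). The other CD28 ligand, Cd80, was not called, with 13.5, 12.2 and 12.8 CPM at vehicle 6 h and 10.9, 13.2 and 10.9 CPM at vehicle 0 h (log2 change 0.14). The inhibitory ligand Cd274 and the maturation antigen Cd83 were lower, with log2 changes of -0.62 and -0.21.

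These levels moved on with time for some genes and stayed for others. Against untreated 0 h, 23 of the 36 maturation genes were higher at vehicle 16 h and 6 were lower, with a median of 0.89, and 19 of the 21 genes higher at 6 h were among the 23. Ccl22 averaged 4.28, 4.97, 67.5 and 72.3 CPM in untreated 0 h, vehicle 0 h, vehicle 6 h and vehicle 16 h cells. Fscn1 averaged 6.15, 6.90, 26.5 and 171 CPM over the same groups, and Apol7c 6.50, 5.78, 70.5 and 296 CPM. Ccl22 was thus near its 16 h level by 6 h, while Fscn1 and Apol7c were several-fold below theirs. Cd86 averaged 74.5, 77.2, 26.0 and 21.9 CPM. The marker sums of cDC2 and monocytes, cells that can also mature, were lower at vehicle 6 h, as given above. The part of those cells in the maturation values was not tested.

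**Figure D3:**
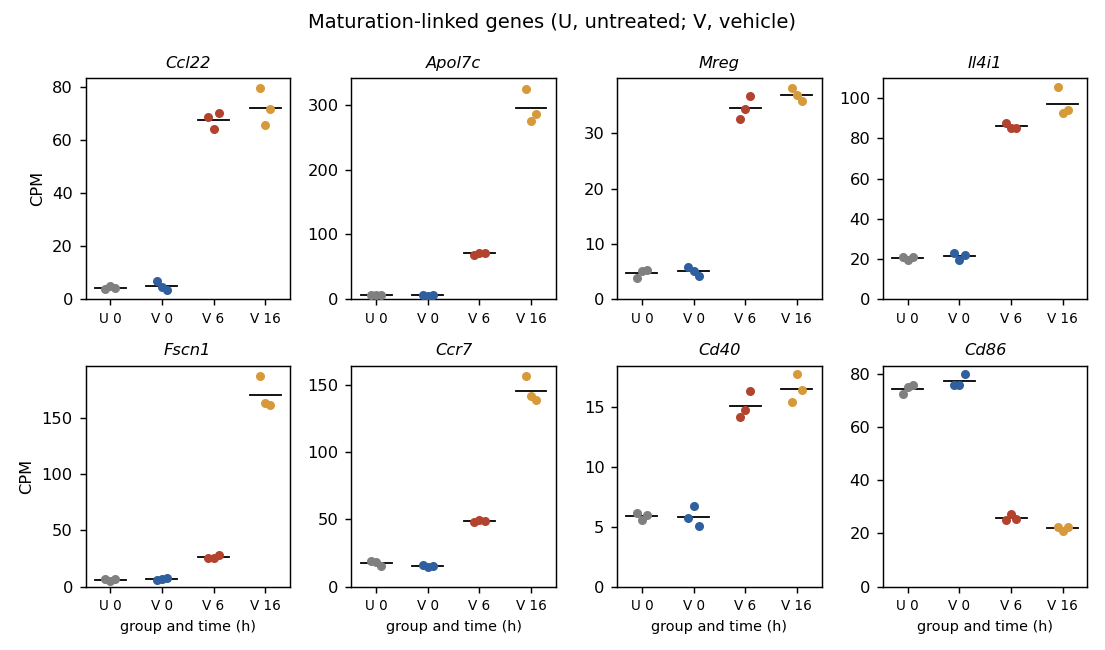
CPM (linear axes from 0) of 8 genes linked to maturation in untreated 0 h, vehicle 0 h, vehicle 6 h and vehicle 16 h cells, with a point for each of the 3 libraries of a group and a bar at their mean. Fscn1 and Apol7c are higher at 16 h (means of 171 and 296 CPM) than at 6 h (26.5 and 70.5 CPM), Ccl22 is at 72.3 CPM at 16 h and 67.5 CPM at 6 h, and Cd86 is lower at both times than at 0 h.

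Inflammatory cytokine and chemokine genes went both ways. Among 28 tested cytokine and chemokine genes, 12 were lower, 6 higher and 10 not called. The shares over all tested genes were 26.9% lower and 26% higher. Ccl4, a chemokine of activated myeloid cells and pDCs, had 0.7, 0.463 and 1.07 CPM at vehicle 6 h, against 18.8, 17.3 and 20.8 CPM at vehicle 0 h (log2 change -4.67). Its neighbour Ccl3 had 0.389, 0.463 and 0.739 CPM at vehicle 6 h, against 7.95, 10.9 and 8.4 CPM at vehicle 0 h. Both chemokines were separate between the groups. Tnf had a log2 change of -1.26 and Il12a, a subunit of interleukin 12, of -1.43. Il12b, its partner subunit, was higher, but at few counts: 3.03, 2.39 and 1.56 CPM at vehicle 6 h, against 0.874, 1.15 and 1.32 CPM at vehicle 0 h (log2 change 1.07, SE 0.24). Ccl22, given above, and Ccl5 (log2 change 1.12) were also higher. When only these groups were fitted, 6 cytokine genes were lower in place of 12. The cDC2 and monocyte marker sums were lower in the same libraries, and their part in the cytokine values was not tested.

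NF-κB targets and feedback genes went both ways, 15 of 31 higher and 14 lower with a median of 0.04. Among all tested genes, 26% were higher and 26.9% lower. The adaptor Traf1 had 41.8, 41.3 and 38.1 CPM at vehicle 6 h, against 16.9, 16.7 and 16.1 CPM at vehicle 0 h. The noncanonical subunits Relb and Nfkb2 were higher by 0.83 and 0.67 on the log2 scale. The canonical subunit Rel was lower, with a log2 change of -0.42. The lower members included Tnip3, an inhibitor of the pathway, at -1.42 and Ptgs2, the inducible cyclooxygenase, at -3.67.

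Interferon genes themselves were below the filter: none of 20 type I and type III interferon genes passed it. Of 68 tested interferon-stimulated genes, 20 were higher, 16 lower and 32 not called, with a median log2 change of 0.01. Over all tested genes, 26% were higher and 26.9% lower. Ifitm3, which restricts virus entry, had 10.9, 12.3 and 13.5 CPM at vehicle 6 h, against 37.7, 40.3 and 39.9 CPM at vehicle 0 h (log2 change -1.69). Irgm2, an immunity-related GTPase, had 13.4, 13.1 and 14.6 CPM at vehicle 6 h, against 4.45, 6.17 and 4.37 CPM at vehicle 0 h (log2 change 1.45). Usp18, a negative regulator of the interferon receptor, was higher by 0.77, while Ifit1, Ifit3 and Oasl1 were not called. The list thus had members in both directions around a median near 0, in shares near those over all tested genes.

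DNA replication genes were lower after 6 h, and mitosis genes were not. Of 48 tested genes of DNA replication and S phase, 45 were lower, 3 were not called and none was higher, with 20 at least 2-fold lower and a median log2 change of -0.93. The 3 not called were Gins3, Gins4 and Pola2. Mcm2 (chr6:88883474-88898780), part of the replicative helicase, had 29.4, 28.8 and 31.9 CPM at vehicle 6 h, against 84.3, 78.2 and 77.0 CPM at vehicle 0 h. The log2 change of Mcm2 was -1.41 (SE 0.055, adjusted p = 7.66e-37, edgeR). Cdca7, a chromatin factor induced by MYC and E2F, had 4.12, 5.48 and 5.42 CPM at vehicle 6 h, against 21.6, 25.5 and 22.6 CPM at vehicle 0 h. Ccne2, the cyclin of S phase entry, had 5.99, 4.09 and 3.94 CPM at vehicle 6 h, against 13.6, 15.3 and 15.9 CPM at vehicle 0 h. Cdca7 and Ccne2 had the lowest fold changes of the list, at -2.21 and -1.67.

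Mitosis genes were slightly higher at the same time. Of 44 tested genes, 26 were higher, 2 (Kif4 and Mki67) lower and 16 not called, none by 2-fold, with a median of 0.25. Plk1 (chr7:122159439-122169873), the kinase that governs entry into and progress through mitosis, had 26.1, 24.5 and 28.6 CPM at vehicle 6 h, against 13.9, 15.8 and 16.4 CPM at vehicle 0 h (log2 change 0.78, SE 0.091). Cenpf, a kinetochore protein, had 116, 117 and 116 CPM at vehicle 6 h, against 78.6, 77.4 and 75.8 CPM at vehicle 0 h. In both genes the vehicle 6 h libraries were all higher. Cdc20 and Cdc25b, which act at the exit from and entry into mitosis, were higher by 0.69 and 0.73 on the log2 scale. Top2a was not called, at 352, 334 and 344 CPM at vehicle 6 h and 345, 343 and 332 CPM at vehicle 0 h.

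By 16 h both lists were lower than in untreated cells at 0 h. All 44 mitosis genes were then lower, with a median of -1.23, so none of the 26 higher at 6 h was higher in that comparison. Of the S phase genes, 47 of 48 were lower with a median of -1.64, including all 45 that were lower at 6 h. Plk1 averaged 15.4, 15.4, 26.4 and 8.89 CPM in untreated 0 h, vehicle 0 h, vehicle 6 h and vehicle 16 h cells. Mcm2 averaged 81.2, 79.8, 30.0 and 22.8 CPM over those groups. Of these groups, the mitotic kinase gene had its highest mean at vehicle 6 h, and the helicase gene was already low by then.

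**Figure D4:**
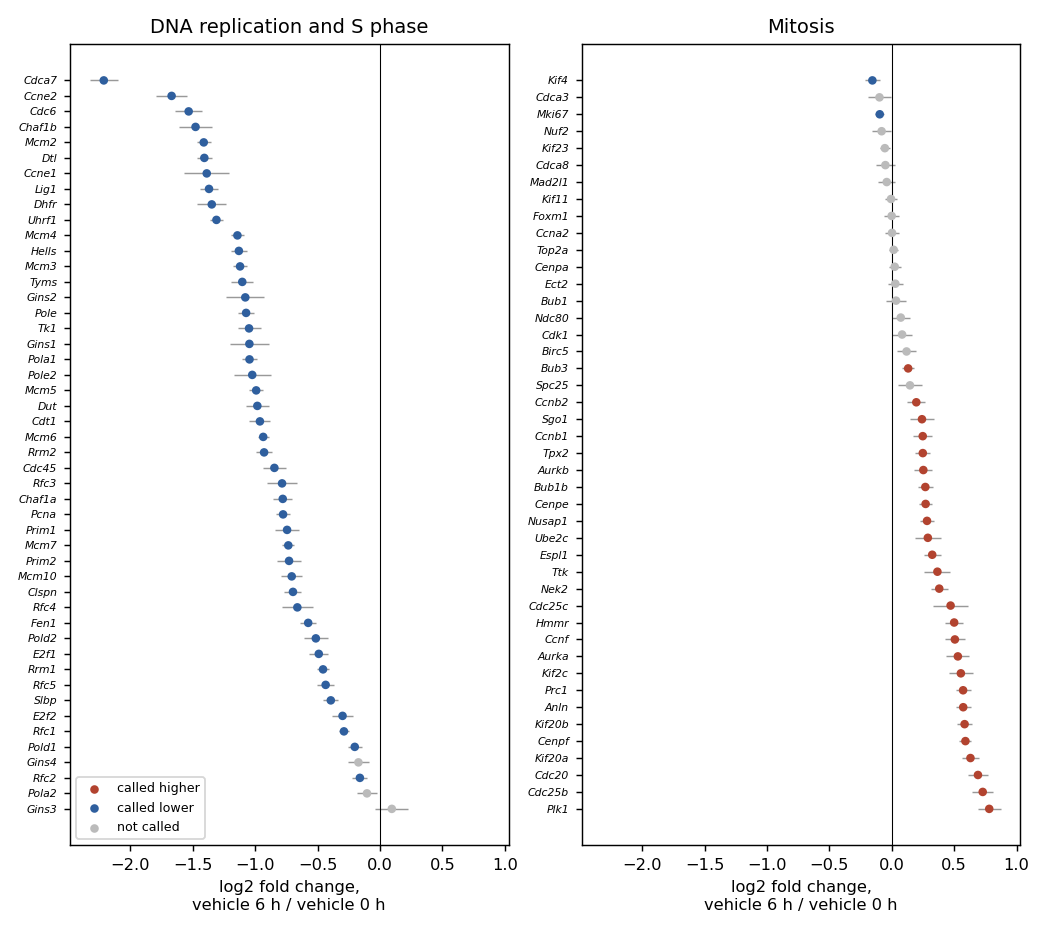
Each point is the log2 change of vehicle 6 h over vehicle 0 h for 1 of 48 replication and S phase genes (left) or 44 mitosis genes (right), with a bar of 1 SE on either side. On the left 45 genes are called lower and none higher; on the right 26 are called higher, up to 0.78 for Plk1, and 2 lower.

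Of 18 tested genes of D cyclins, their kinases, CDK inhibitors and RB and E2F proteins, 9 were lower, 4 (Rb1, Rbl2, Cdkn2b and Cdkn2c) higher and 5 not called. The shares over all tested genes were 26.9% lower and 26% higher. The cyclin gene Ccnd2 had 38.0, 43.6 and 47.0 CPM at vehicle 6 h, against 131, 126 and 127 CPM at vehicle 0 h (log2 change -1.58), and Ccnd3 and Ccnd1 had log2 changes of -1.10 and -0.40. Myc had 4.98, 4.40 and 3.61 CPM at vehicle 6 h, against 12.9, 12.9 and 12.4 CPM at vehicle 0 h. Of 44 tested ribosome biogenesis genes, many of them known MYC targets, 32 were lower and 1 (Wdr12) higher, and all 32 were also lower in vehicle 16 h against untreated 0 h. Rrp12, Gnl3 and Nop58 were the lowest named members, at -1.22, -1.03 and -1.01. Of 52 tested histone genes, 31 were lower and 1 was higher, with a median of -0.28; all 52 were lower in vehicle 16 h against untreated 0 h. The linker histone gene Hist1h1e had 134, 137 and 141 CPM at vehicle 6 h, against 279.7, 265 and 279 CPM at vehicle 0 h. Reads of near-identical histone copies may be shared, so single copies are uncertain. The 66 ribosomal protein genes gave 3 higher and 11 lower with a median of -0.01, counts that ran from 0 to 22 and from 2 to 20 under other processing.

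Amino acid and endoplasmic reticulum stress genes were lower, not higher, after 6 h of culture. Of 37 tested genes of the integrated stress response, the ATF4 program that restores amino acid supply, 23 were lower and 5 higher. Slc7a5 had 50.6, 50.05 and 56.5 CPM at vehicle 6 h, against 150.4, 139 and 137 CPM at vehicle 0 h. Slc3a2, which pairs with SLC7A5 in the leucine transporter, had 67.4, 77.1 and 67.1 CPM at vehicle 6 h, against 177, 172 and 171 CPM at vehicle 0 h. Both chains of the transporter were thus well below their 0 h level, at -1.44 and -1.30 on the log2 scale. Ddit4, an mTORC1 inhibitor on the same list, was higher, with 16.7, 18 and 16.0 CPM at vehicle 6 h against 6.76, 6.41 and 6.01 CPM at vehicle 0 h. Of 26 tested genes of the unfolded protein response, 23 were lower and 1 higher, with a median of -0.34. Hspa5, the main chaperone of the endoplasmic reticulum, had 349, 424 and 394 CPM at vehicle 6 h, against 599, 577 and 585 CPM at vehicle 0 h.

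The remaining metabolic and stress lists held members that moved each way, beside 26% higher and 26.9% lower over all tested genes. Of 28 tested heat shock genes, 9 were higher and 9 lower, with a median of -0.06; Hsph1 was higher by 0.62 and Hsp90aa1 had a log2 change of -0.40. Glycolysis and hypoxia genes were 8 higher and 13 lower of 35, among them the glucose transporter Slc2a1 at -1.21 and the phosphofructokinase Pfkp at -1.06. Targets of the sterol sensor LXR were 13 lower and 2 higher of 17, with the cholesterol exporters Abcg1 at -1.19 and Abca1 at -0.91. Genes of cholesterol synthesis and uptake were 12 lower and 4 higher of 23, and Insig1, which holds back sterol synthesis, had a log2 change of -0.77. Oxidative stress genes were 12 lower and 6 higher of 23. Its member Nqo1, a quinone reductase, had 2.10, 2.24 and 1.89 CPM at vehicle 6 h against 0.159, 0.329 and 0.165 CPM at vehicle 0 h, and Hmox1 went the other way with a log2 change of -0.84.

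Genes of survival and death changed on both sides. Of 26 tested genes of the BCL2 family and its regulators, 13 were higher and 7 lower. In the tested genes as a whole, 26% were higher and 26.9% lower, and the p53 counts below stand beside the same shares. Bcl2, which protects cells from apoptosis and is needed for pDC survival, had 52.1, 45.8 and 51.3 CPM at vehicle 6 h, against 113, 115 and 118 CPM at vehicle 0 h. Bcl2l11, the gene of its antagonist BIM, had 61.4, 59.4 and 61.1 CPM at vehicle 6 h, against 154, 156 and 159 CPM at vehicle 0 h. A protector and its antagonist were therefore both lower, at -1.21 and -1.37 on the log2 scale. The protective gene Bcl2a1d was higher by 1.94, with reads that may be shared with its near-identical copies. Of 28 tested p53 targets, 13 were higher and 5 lower; the death receptor Fas was higher by 1.53, and Pmaip1 had a log2 change of -1.06.

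Few identity genes of pDCs were called at a change of 2-fold or more. Of 53 tested members of that list, 12 were higher, 23 lower and 18 not called, beside 26% higher and 26.9% lower over all tested genes. In the list, 1 was at least 2-fold lower and none at least 2-fold higher, and the median log2 change was -0.09. Members ran from -1.58 to 0.64 on the log2 scale. Their sums did not overlap, at 16588 to 17075 CPM at vehicle 6 h and 18877 to 19088 CPM at vehicle 0 h. Siglech (chr7:55768178-55778925), the pDC surface lectin, had 1165, 1134 and 1164 CPM at vehicle 6 h and 1105, 1122 and 1097 CPM at vehicle 0 h. It was not called at a log2 change of 0.06 (SE 0.029, adjusted p = 0.0847, edgeR). Bst2 was not called either, at 225, 275 and 243 CPM at vehicle 6 h and 248, 243 and 249 CPM at vehicle 0 h. Of the pDC transcription factors, Tcf4 had a log2 change of -0.14, Irf8 of 0.25, Zeb2 of -0.50 and Bcl11a of 0.42. Tlr7 had 187, 159 and 197 CPM at vehicle 6 h, against 213, 225 and 221 CPM at vehicle 0 h (log2 change -0.28), and Tlr9 had a log2 change of -0.13. Irf7 was called lower at -0.35 (adjusted p = 0.0262, edgeR), a call that some alternatives lost.

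The larger moves in this list included surface receptors. Ccr9, the gut homing receptor of pDCs, had 666, 598 and 648 CPM at vehicle 6 h, against 1009, 1025 and 1023 CPM at vehicle 0 h (log2 change -0.68, SE 0.034). Vehicle 16 h cells had 1043 ± 10.1 CPM (SD, n = 3), a mean like that at 0 h. Ptprc, the gene of CD45 and its B220 form, had 1336, 1203 and 1225 CPM at vehicle 6 h, against 2162, 2272 and 2243 CPM at vehicle 0 h. Cadm1, an adhesion molecule, was higher by 0.64. Among 30 tested chemokine and homing receptor genes, 21 were lower and 4 higher, including Gpr183, the oxysterol receptor, at -1.04 and Cmklr1, the chemerin receptor, at -2.31.

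Innate receptors and antigen presentation genes went both ways, most of them by less than 2-fold. Of 34 tested genes of Toll-like receptors, other sensors and their adaptors, 19 were lower and 7 higher, with 3 at least 2-fold lower. Clec7a, the receptor for fungal glucan, had 10.3, 8.25 and 7.55 CPM at vehicle 6 h, against 40.0, 38.7 and 41.7 CPM at vehicle 0 h. Tlr11 was higher by 0.90 and Tlr2 had a log2 change of -0.84. MHC class II genes were 10 lower and 3 higher of 16: H2-Eb2, a class II beta chain, had 21.2, 18.3 and 21.9 CPM at vehicle 6 h, against 4.13, 5.59 and 4.61 CPM at vehicle 0 h, the transactivator Ciita was higher by 0.23, and the peptide loading gene H2-DMb1 had a log2 change of -0.65. MHC class I genes were 7 higher and 8 lower of 23, beside 26% higher and 26.9% lower over all tested genes.

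Single genes of other cell types were more often lower than higher, with many not called. Over all tested genes, 26% were higher and 26.9% lower. Of 20 tested cDC2 genes, 12 were lower and none higher, and of 16 monocyte and macrophage genes, 12 were lower and none higher. Irf4, the transcription factor of cDC2, had 123, 127 and 122 CPM at vehicle 6 h, against 263, 280.2 and 261 CPM at vehicle 0 h. Clec10a, a cDC2 lectin, had 15.3, 15 and 16.5 CPM at vehicle 6 h, against 42.6, 37.4 and 35.8 CPM at vehicle 0 h. Both were separate between the groups, at -1.11 and -1.31 on the log2 scale, and the cDC2 marker Sirpa was not called at 0.01. The cDC1 list had 12 lower and 5 higher of 20, with Batf3 higher by 0.88. Of 21 tested B cell genes, 5 were lower, 3 higher and 13 not called, so the share called lower was near that over all tested genes. Of 10 T and NK cell genes, 4 were lower, 1 higher and 5 not called.

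**Figure D5:**
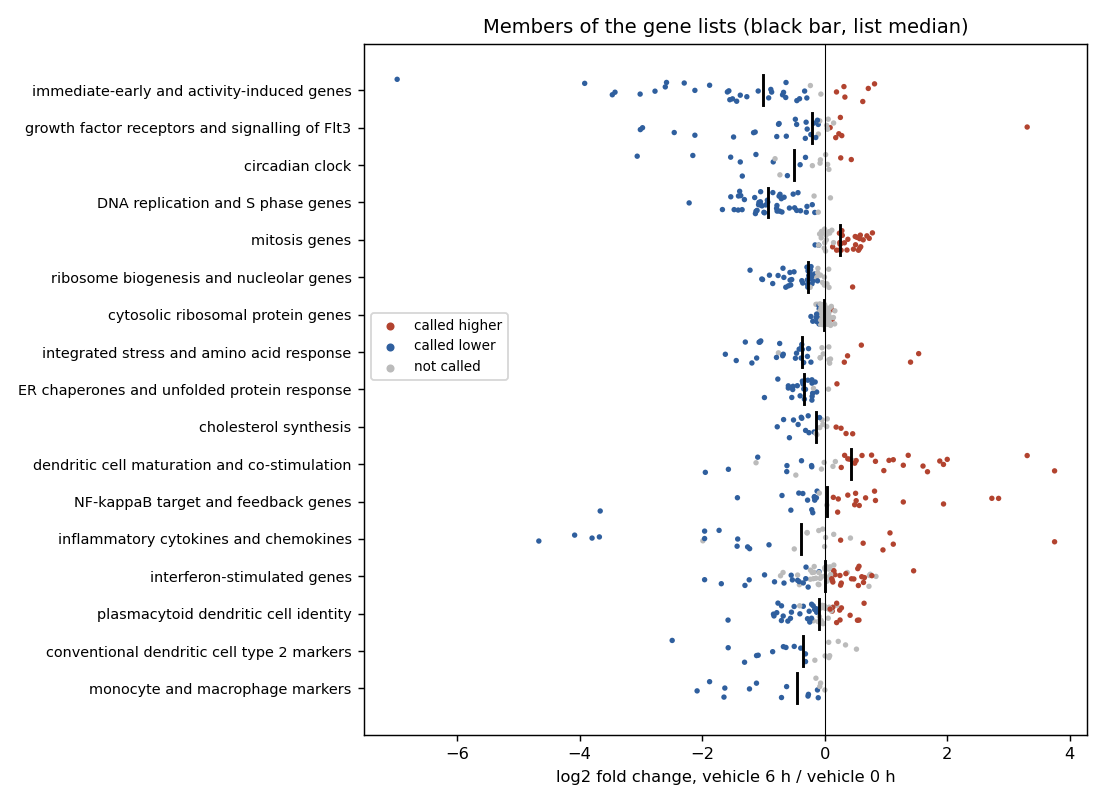
Log2 change of vehicle 6 h over vehicle 0 h for each tested member of 17 gene lists, 1 list per row, with a bar at the list's median; colours mark genes called higher, called lower or not called. The S phase row lies almost wholly below 0 with a median of -0.93, the immediate-early row has a median of -1.0 and the lowest point (Fosb, -6.98), and the maturation row has a median of 0.44.

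Among abundant genes (mean of at least 100 CPM), the highest fold changes were smaller than the lowest. Arid3a, a DNA-binding factor of B and progenitor cells, had 136, 141 and 142 CPM at vehicle 6 h, against 73.6, 77.7 and 75.7 CPM at vehicle 0 h. Il16, a T cell attractant, had 188, 190.1 and 195 CPM at vehicle 6 h, against 114, 113 and 114 CPM at vehicle 0 h. These were log2 changes of 0.88 and 0.75, and Tbc1d4 and Swap70 reached 0.80 and 0.73. On the lower side, Dennd4a had 212, 187 and 191 CPM at vehicle 6 h, against 780.0, 852 and 862 CPM at vehicle 0 h (log2 change -2.08). Ahr, the aryl hydrocarbon receptor, had 55.0, 55.8 and 58.6 CPM at vehicle 6 h, against 221, 220.2 and 226 CPM at vehicle 0 h. Cdh1, which encodes E-cadherin, and Rasgef1b, an exchange factor for Ras family GTPases, had log2 changes of -1.58 and -2.41.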

How the data were processed

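Total RNA was depleted of ribosomal RNA, made into strand-directional libraries and sequenced as paired 75-base reads, per the labels' protocols. The authors aligned reads with STAR to mm10, per the submitters' processing notes; versions, counting program, strand setting and annotation release are not given in the sources used here. The deposited values are whole-number counts per gene for 54532 genes, of which 28361 had a count. Strand use in counting being unstated, overlapping and antisense genes are uncertain, and so are near-identical copies such as histones, Bcl2a1 genes and H2-DMb1.

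Groups were taken from the labels. edgeR 4.0.16 (R 4.3.3) fitted all 18 libraries in 6 groups by quasi-likelihood (robust), after filterByExpr (minimum count 10; 14876 genes kept) and TMM scaling, with no replicate block. The SE is the absolute log2 fold change divided by the square root of F; where few counts make a large change, it is understated. Biological coefficient of variation was 3.08%. The fit was tested on simulated data. DESeq2 1.42.0 and 14 other alternatives were run.

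Genes named were the 12 highest and 12 lowest called fold changes with a mean of at least 10 CPM and no overlap between the groups, 8 each way at 100 CPM or more, a fixed panel, and in each list the called members with the largest changes (up to 5, mean of at least 5 CPM). Other members named were chosen after their values were seen. The members, lists and panel were chosen with earlier results of these data known. The TGACG motif, the list counts for vehicle 16 h and the gene classes were added after the data were seen. Promoters came from RefSeq (GRCm38.p6) and gene coordinates from GENCODE M21, which held 97.6% of the table's IDs.

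Libraries sharing a replicate number did not deviate together (correlations of -0.073, -0.038 and -0.032). With 3 libraries in each group, this cannot tell whether the numbers pair them.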

Additional observations from a re-analysis of the deposited data

How the results depend on the processing

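The 2 counts over all genes stayed within 1.5 times under all 15 alternatives with a value: 3303 to 3943 genes were higher and 3592 to 4148 lower. Leaving out 1 library at a time gave 3628 to 3888 higher and 3592 to 3752 lower. Of the 1106 genes changed at least 2-fold, 888 (only these groups fitted) to 1106 were called in the same direction, and 952 were with untreated 0 h as the baseline. Any scaling moved the median of all genes by under 0.1. With the replicate number as a block, 3830 genes were higher, 3975 lower, and 0 differed between vehicle 0 h and untreated 0 h. Whether the numbers pair the libraries is not known. For vehicle 0 h against untreated 0 h, DESeq2 size factors and library totals gave 1 call each, no filter 5 and a fit of only those groups 4, and leaving out 1 library gave 0 to 7 (7 without untreated 0 h replicate 3, 2 without vehicle 0 h replicate 2); the cause was not tested.

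Of 3104 values of 207 named genes, 3034 kept direction and call. The sign of Bst2, which was not called, turned with library totals (-0.0054), untreated 0 h as baseline (-0.014) and without vehicle 6 h replicate 2 (leave-one-out range -0.065 to 0.082). Calls of Irf7, Hspa1a, Gas5, Ebf1, Cxcl10 and several ribosomal protein and mitochondrial genes were lost under at least 1 alternative; Siglech was called at 0.07 to 0.08 under 3. Of 1140 list counts, 1066 stayed within 1.5 times. The filter was set over all 18 libraries, so some tested genes had under 10 counts in each of these 6, and their fold changes are the least certain.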

Other observations

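Zinc finger genes whose symbols begin with Zfp, most of which encode DNA-binding repressors, were more often higher than lower: of 319 tested, 159 were higher and 40 lower, with 33 at least 2-fold higher and 1 at least 2-fold lower and a median log2 change of 0.27. The shares over all tested genes were 26% higher and 26.9% lower, with 3.4% at least 2-fold higher and 4.03% at least 2-fold lower. Zfp46 had 21.5, 22.8 and 24.5 CPM at vehicle 6 h, against 8.90, 9.78 and 10.1 CPM at vehicle 0 h. Zfp606 had 22.3, 25.8 and 21.9 CPM at vehicle 6 h, against 9.06, 8.55 and 12.2 CPM at vehicle 0 h. No vehicle 0 h library of these genes reached a vehicle 6 h library. Zfp7, Zfp189, Zfp948 and Zfp760 had log2 changes of 1.45, 1.31, 1.17 and 1.14.

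Classes of noncoding RNA differed in the balance of their calls, beside 26% higher and 26.9% lower over all tested genes, and most of their members were not called. Of 352 lincRNA genes, 105 were higher and 42 lower (median 0.24), and of 349 antisense genes, 81 were higher and 21 lower (median 0.21). Of 987 unclassified transcribed regions (TEC in the annotation), 129 were higher and 296 lower (median -0.13), and of 176 sense intronic genes, 15 were higher and 54 lower (median -0.18). The ribosomal RNA fragment gene Gm26917 had 60750, 84364 and 73459 CPM at vehicle 6 h, against 41597, 36365 and 37986 CPM at vehicle 0 h.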
